A study of Mus musculus with 12 samples.

Results

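The genes described here encode subunits of the mitochondrial respiratory chain, measured in neural retina of B6 and 129 mice before and after culture. They were chosen as a list of 46 nuclear genes of complexes I, II, III and IV, and a gene entered with the probe sets of the array that the annotation assigns to its symbol alone. Of the 46 genes, 44 had such a probe set, in all 98 of the 45037 probe sets tested: 25 genes of complex I, 4 of complex II, 6 of complex III and 9 of complex IV. Ndufs6 and Cox7b were not analysed here. Where a gene had several probe sets (29 of the 44 genes), the brightest on average was taken to represent it.

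RNA of whole neural retina was hybridised to Affymetrix Mouse Genome 430 2.0 arrays, 2 arrays for each of 6 groups, and the values were log2 of RMA intensities. B6 denotes C57BL/6NCrSlc and 129 denotes 129X1/SvJJmsSlc, both 10 weeks of age and, per the methods, male. From each strain there was normal retina, a retinal explant kept for 3 days in vitro (3DIV) without inhibitor, and a 3DIV explant kept with 15 µM CHIR99021, an inhibitor of the kinase GSK3. In the labels both arrays of a group are biological replicates, and the methods state that 2 retinas were used for each condition. It is not stated whether both came from 1 animal, so the p-values may measure the spread within an animal. The study asked why the strains differ in the proliferation of Müller glia, the supporting glia of the retina, and the respiratory chain was not its subject. The RNA is that of all retinal cells together, in which fewer cells of a type and less RNA per cell cannot be told apart.

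The respiratory chain passes electrons from nutrients to oxygen and pumps protons across the inner mitochondrial membrane, and ATP synthase uses the proton gradient to make ATP. Complex I accepts electrons from NADH and complex II from succinate, complex III hands them to cytochrome c, and complex IV reduces oxygen. Photoreceptors are among the most energy-demanding cells of the body and pack mitochondria into their inner segments, while the retina also turns much of its glucose into lactate. Most subunits are encoded in the nucleus, and the transcription factors NRF1, GABP (an ETS factor) and ERRα with the coactivator PGC-1α are known regulators of their genes.

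Replicate arrays lay close together for these genes. The median absolute difference between the 2 arrays of a group was 0.026 to 0.074 on the log2 scale over the 44 genes, and the largest was 0.20, for Ndufs7 in B6 explants with CHIR99021. By mean level, 43 of the 44 genes lay above the 90th percentile of all probe sets; Cox7c was the exception, at percentile 64.6. One normal 129 retina stood apart in other genes: its 7 lens markers summed to an intensity of 20832, against 837 in the other normal 129 retina and 169 to 226 in the other 10 arrays. For the 44 genes together, counts after culture in 129 and between strains in normal retina are therefore also given without each of these arrays. Counts by complex, counts of other gene lists and interactions are not given without them. For genes of the 44 whose values are given by array, the text says where a call was lost without a normal 129 retina. The precision of all values is limited by the 2 arrays of a group.

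The first question was what 3 days of culture did to these genes. The data showed small and mixed changes: of the 44 genes, 10 were called higher and 5 lower in B6, and 8 higher and 2 lower in 129. Over all 45037 probe sets, 14.9% were called higher and 16.6% lower in B6, and 14.7% and 15.9% in 129, at a limma adjusted p under 0.05. The share of genes that rose (10 of 44 and 8 of 44) was thus near that background or slightly above it, and the share that fell was below it. The median change over the 44 genes was 0.06 in B6 and 0.05 in 129 on the log2 scale, and the range was -0.68 to 0.57 and -0.35 to 0.61. The median over all probe sets was -0.02 in B6 and -0.03 in 129. After cyclic loess normalisation the split in 129 was 3 higher and 4 lower, with a median of -0.03. The counts fell when arrays were left out: without the normal 129 retina rich in lens markers 5 genes rose and 1 fell in 129, without the other normal 129 retina 2 rose and 1 fell, without replicate 1 or 2 of the 129 explants 2 or 4 rose, and in B6 without replicate 1 of the explants 6 rose and 1 fell.

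Complex II gave the largest share of rising genes, though it has 4 genes only. Of these, 2 were called higher and 1 lower in B6, and 3 higher in 129. Over all probe sets 14.9% were called higher in B6 and 14.7% in 129. Sdhb, the iron-sulfur subunit of succinate dehydrogenase, measured 10.64 and 10.61 in the 2 normal B6 retinas and 11.04 and 11.18 at 3DIV, and 10.51 and 10.56 in normal 129 retina and 11.10 and 11.04 at 3DIV. All 4 explants lay above all 4 normal retinas. Sdhb rose by 0.49 (SE 0.072, limma adjusted p = 0.000419) in B6 and by 0.54 (adjusted p = 0.000202) in 129, that is 1.40-fold and 1.45-fold. Sdhd, a membrane anchor of the same complex, measured 10.13 and 10.02 in normal and 10.37 and 10.50 in cultured B6 retina, and 9.96 and 9.98 in normal and 10.29 and 10.25 in cultured 129 retina. It rose by 0.36 (SE 0.076, limma adjusted p = 0.00413) and by 0.30 (adjusted p = 0.0115). The call in 129 was lost without replicate 1 of either 129 group and with the mean of its probe sets (0.19). Sdhc, the other membrane anchor, rose in 129 by 0.24 (limma adjusted p = 0.0492) and stood at 0.03 in B6. Sdha, the flavoprotein subunit that oxidises succinate, went the other way in B6, from 11.24 and 11.29 to 11.03 and 11.04 (a fall of 0.23, SE 0.074, limma adjusted p = 0.0383), and its difference in 129 was -0.01. The B6 call of Sdha was lost in 12 of 19 alternatives, among them 10 of the 12 left-out arrays and the mean of its probe sets. Its second bright probe set did not fall in B6, with 10.72 and 10.79 in normal and 10.78 and 10.73 in cultured retina. A dimmer one went from 7.19 and 7.32 to 6.90 and 6.95.

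In complex I, 7 of 25 genes were called higher and 1 lower in B6, and 3 higher in 129. Over all probe sets 14.9% were called higher and 16.6% lower in B6, and 14.7% higher in 129. The count in 129 thus lay near that share. Ndufa3, an accessory subunit, changed most. It measured 11.91 and 11.84 in normal and 12.39 and 12.50 in cultured B6 retina, and 11.28 and 11.48 in normal and 12.00 and 11.98 in cultured 129 retina. Within each strain the cultured retinas did not overlap the normal ones. The rise was 0.57 (SE 0.083, limma adjusted p = 0.000366) in B6 and 0.61 (adjusted p = 0.000212) in 129, or 1.49-fold and 1.53-fold, and it was called under every alternative that was run. Another probe set of Ndufa3 gave 0.64 and 0.60, and the one of lowest signal gave 0.35 in B6 and 1.11 in 129, of which the second was called. Ndufa8, an accessory subunit of the intermembrane space side, rose from 10.64 and 10.50 to 10.94 and 10.84 in B6 (by 0.32, SE 0.082, limma adjusted p = 0.0117) and from 10.40 and 10.51 to 10.72 and 10.70 in 129 (by 0.26, adjusted p = 0.0367). The call of Ndufa8 in 129 was lost in 9 of 19 alternatives, among them without either normal 129 array and after cyclic loess, and that in B6 without replicate 2 of normal retina or replicate 1 of the explants.

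The other complex I genes called higher in B6 were Ndufs4 (0.40), Ndufa7 (0.35), Ndufa5 (0.28), Ndufa2 (0.26) and Ndufa6 (0.25), and Ndufb7 was called higher in 129 (0.28). Ndufs4 had probe sets that disagreed. The one that stands for the gene rose in B6, one fell by 0.26 there, and one changed by -1.30 in B6 and -1.73 in 129. Ndufa10 was the single complex I gene that fell, from 11.60 and 11.69 to 11.44 and 11.39 in B6 (by 0.23, SE 0.067, limma adjusted p = 0.0232), and it stood at -0.09 in 129. The call of Ndufa10 was lost with the compared arrays alone, without replicate 2 of normal B6 retina and without either B6 explant. The catalytic core subunits Ndufs1, Ndufs3, Ndufs7, Ndufs8, Ndufv1 and Ndufv2, which hold the flavin and iron-sulfur centres or bind next to them, were not called in either strain, with differences of -0.20 to 0.19.

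**Figure D1:**
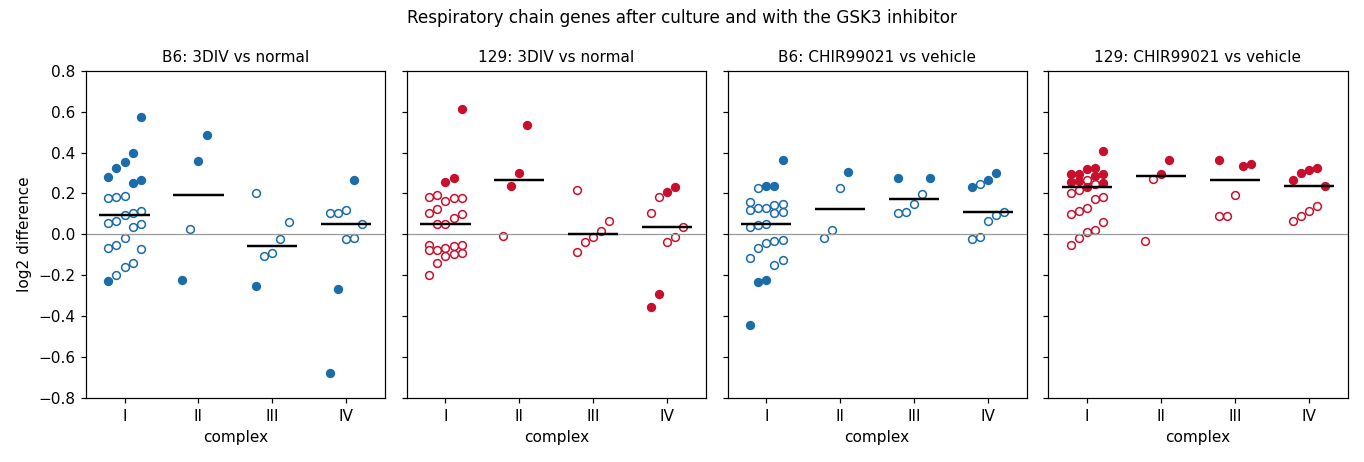
Log2 differences (vertical axis) of the 44 respiratory chain genes by complex, for culture (3DIV minus normal) and inhibitor (CHIR99021 minus vehicle at 3DIV), in B6 (blue) and 129 (red). Each point is 1 gene, filled where called at a limma adjusted p under 0.05, and the black line is the median of the complex. With CHIR99021 in 129, 41 of 44 points lie above 0 and 21 are filled.

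Complex IV held the largest falls. Cox7c, a small accessory subunit of cytochrome c oxidase, measured 7.80 and 7.61 in normal and 6.96 and 7.09 in cultured B6 retina, and 7.20 and 7.33 in normal and 6.93 and 6.90 in cultured 129 retina. The groups did not overlap within a strain. It fell by 0.68 (SE 0.087, limma adjusted p = 0.000148) in B6 and by 0.35 (adjusted p = 0.00939) in 129. The second probe set of Cox7c, with log2 values of 5.03 to 5.95, gave -0.57, called, and -0.35, not called. Both probe sets of Cox7c were dim for this complex. The mean level of the one that stands for the gene was 7.20, against 12.38 (Cox6c) to 13.50 (Cox6a1) for the other complex IV genes. Ndufa4, first named as a complex I subunit and now known as a subunit of complex IV, measured 12.76 and 12.71 in normal and 12.47 and 12.45 in cultured B6 retina, and 12.61 and 12.50 in normal and 12.27 and 12.25 in cultured 129 retina. It fell by 0.27 (SE 0.072, limma adjusted p = 0.0155) and by 0.29 (adjusted p = 0.00917). In 129 the call of Cox7c was lost without replicate 2 of normal retina or of the explants, and that of Ndufa4 without replicate 1 of normal retina or replicate 2 of the explants. In B6 the call of Ndufa4 was lost with the compared arrays alone, without replicate 1 of normal retina and without either explant.

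Other complex IV genes went up. Cox5a, which encodes a nuclear subunit on the matrix side, rose in B6 by 0.27 (12.20 and 12.27 to 12.50 and 12.51, limma adjusted p = 0.0151) and stood at 0.18 in 129. Cox6b1, which joins 2 monomers of the enzyme, rose in 129 by 0.21 (12.21 and 12.17 to 12.43 and 12.36, adjusted p = 0.0456) and stood at 0.11 in B6. This call of Cox6b1 was lost in 13 of 19 alternatives, among them 10 of the 12 left-out arrays, and that of Cox5a in 5, among them the mean of its probe sets (0.15). Cox5b rose in 129 by 0.23. Cox4i1, Cox6a1, Cox6c and Cox7a2 were not called, with differences of -0.04 to 0.12. In complex III a single gene was called, in B6: Uqcrb fell from 13.39 and 13.35 to 13.08 and 13.16 (by 0.25, SE 0.070, limma adjusted p = 0.0188), while its second probe set stood at 0.12. The call of Uqcrb was lost in 4 of 19 alternatives, among them the mean of its probe sets (-0.06). The core proteins Uqcrc1 and Uqcrc2, the Rieske iron-sulfur protein Uqcrfs1, Uqcrq and cytochrome c1 (Cyc1) were not called in either strain.

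**Figure D2:**
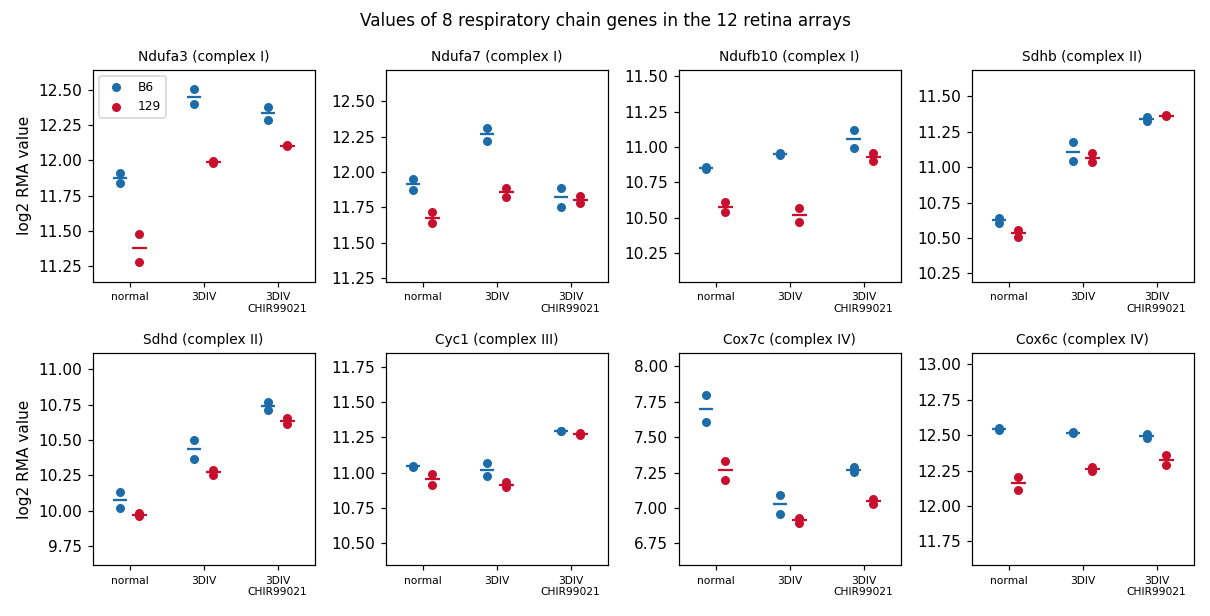
Log2 RMA values (vertical axis, the same span in each panel) of 8 respiratory chain genes in the 12 arrays, by state, for B6 (blue) and 129 (red). Points are single arrays and short lines are group means of 2 arrays. Sdhd steps up from normal retina to 3DIV and again with CHIR99021 in both strains, Cox7c steps down at 3DIV, and the 129 points of Ndufa3 lie below the B6 points in every state.

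Rod photoreceptor markers and glycolytic genes gave a different picture over the same 3 days. All 13 rod markers measured fell in both strains, and their summed intensity came to 50.8% of normal in B6 and 45.1% in 129. Gnat1, the rod transducin, measured 13.93 and 13.95 in normal and 12.94 and 12.95 in cultured B6 retina, and the groups did not overlap. In B6 Pde6b fell by 1.18 and Sag, the rod arrestin, by 0.23. In 129 Gnat1, Pde6b and Sag fell by 1.10, 1.35 and 0.36. Of the 19 genes of glycolysis and lactate handling measured, 16 fell in B6 and 18 in 129, none rose, and the median change was -0.76 and -0.61. Of all probe sets, 16.6% were called lower in B6 and 15.9% in 129. Hk2, a hexokinase, changed by -2.24 in B6 and -1.66 in 129, Pkm, the pyruvate kinase of most tissues, by -1.09 and -1.05, and Ldha, lactate dehydrogenase A, by -0.84 and -0.59. The summed intensity of the glycolytic genes stood at 60.6% and 63.3% of normal. The sum of the 44 respiratory chain genes stood at 104% of normal in B6 (155466 and 156360, against 148582 and 151034 in normal retina) and at 104.6% in 129 (141182 and 145009, against 135903 and 137673). By complex, the sums were 92.9% (complex III in B6) to 119% (complex II in 129) of normal. The summed markers of microglia and macrophages stood at 421% of normal in B6 and 263% in 129 and those of vessels at 159% and 169%. Cone markers stood at 12.3% and 8.24% and those of the pigmented epithelium, the layer behind the retina, at 3.49% and 4.60%. Markers of bipolar cells (111% and 93.8%), amacrine cells (93.0% and 76.8%), ganglion cells (78.7% and 86.2%), Müller glia (114% and 98.7%) and erythrocytes (89.2% and 84.7%) lay nearer to normal. The part of changed cell types in the respiratory chain values was not tested.

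**Figure D3:**
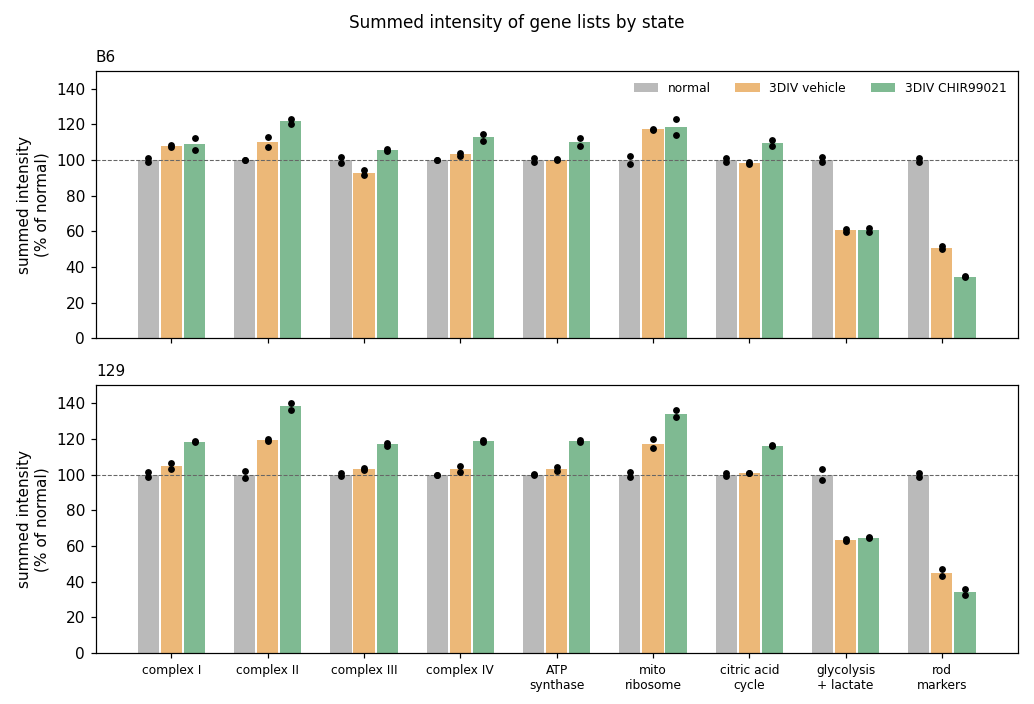
Summed linear RMA intensity (vertical axis, percent of the strain's normal mean) of each complex and of other gene lists in normal retina (grey), 3DIV (orange) and 3DIV with CHIR99021 (green), B6 above and 129 below. Bars are means and dots the 2 arrays of a group. Sums of the respiratory complexes stay at 92.9% or more of normal, while glycolytic genes stand at 60.6% to 64.6% and rod markers at 50.8% or less in explants.

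The next question was what the GSK3 inhibitor did in the explants. In 129, 21 of the 44 genes were higher with CHIR99021 than with vehicle and none was lower, where 5.87% of all probe sets were called higher and 6.38% lower. At an unadjusted p under 0.05, 28 were higher and none lower in limma, and with a trend and robust eBayes step 28 and none passed an adjusted p under 0.05. The median difference was 0.24 (range -0.05 to 0.41), 41 of 44 genes lay above 0, and the median over all probe sets was 0.01. In B6, 9 genes were higher and 3 lower, where 9.42% of all probe sets were called higher and 9.18% lower, and the median was 0.11 (range -0.44 to 0.37). The counts leaned on each of the arrays compared: without 1 array of the 129 explants, 0 to 5 genes were higher, with 0 when replicate 2 of the vehicle explants was left out, where 2.04% of all probe sets were called higher. The median of the 44 genes remained at 0.22 to 0.26, and 39 to 42 genes lay above 0. In B6, 0 to 3 genes were higher and 1 was lower without 1 of its explant arrays, with 0 when replicate 2 with CHIR99021 was left out, and the median was 0.06 to 0.13. Over the same comparison the summed rod markers went from 50.8% to 34.5% of normal in B6 and from 45.1% to 34.1% in 129, those of cones from 12.3% to 6.30% and from 8.24% to 6.18%, and those of microglia and macrophages from 421% to 186% and from 263% to 162%. Bipolar cell markers went from 111% to 78.8% and from 93.8% to 66.2%, and vessel markers from 159% to 124% and from 169% to 115%. The part of these cell types in the inhibitor values was not tested.

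All 4 complexes took part in 129: 11 of 25 genes of complex I, 2 of 4 of complex II, 3 of 6 of complex III and 5 of 9 of complex IV were higher. Over all probe sets 5.87% were called higher. The medians of the complexes were 0.23, 0.28, 0.26 and 0.24. Ndufb10, an accessory complex I subunit, measured 10.57 and 10.47 with vehicle and 10.96 and 10.90 with CHIR99021 in 129 and was higher by 0.41 (SE 0.074, limma adjusted p = 0.00566). In B6 it measured 10.96 and 10.94 with vehicle and 10.99 and 11.12 with the inhibitor, a difference of 0.11 that was not called. Sdhd measured 10.29 and 10.25 against 10.65 and 10.62 in 129 and was higher by 0.37 (SE 0.076, limma adjusted p = 0.0107), and in B6 it measured 10.37 and 10.50 against 10.71 and 10.77 and was higher by 0.31 (adjusted p = 0.0174). For Sdhd the groups with and without inhibitor did not overlap in either strain. In 129 the calls of Ndufb10 and Sdhd were lost without replicate 2 of the vehicle explants, and that of Sdhd also without replicate 1 of either group of explants. In B6 the call of Sdhd was lost in 4 of 19 alternatives.

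All 9 genes that were higher in B6 were among the 21 that were higher in 129, and they came from every complex. The overlap between strains over all probe sets was not counted, so this overlap has no background beside it. Cyc1, the cytochrome c1 that passes electrons to cytochrome c, measured 10.93 and 10.90 with vehicle and 11.27 and 11.28 with CHIR99021 in 129, and 11.07 and 10.98 against 11.30 and 11.29 in B6. It was higher by 0.36 (SE 0.068, limma adjusted p = 0.00693) and by 0.27 (adjusted p = 0.0182). Uqcrfs1, the Rieske protein, was higher by 0.34 in 129 and by 0.28 in B6. Cox7a2 measured 12.40 and 12.39 against 12.68 and 12.71 in B6, a difference of 0.30 (SE 0.065, limma adjusted p = 0.00946), and was higher by 0.32 in 129. The call of Cyc1 in 129 was lost without replicate 2 of the vehicle explants, and that of Cox7a2 in B6 in 3 of 19 alternatives. Cox5b and Cox6b1 were also called in both strains, with differences of 0.23 to 0.32. In complex I, Ndufa10, Ndufb5 and Ndufs1 were called in both. Ndufs1, the largest iron-sulfur subunit, measured 9.50 and 9.54 with vehicle and 9.83 and 9.94 with CHIR99021 in B6 and was higher by 0.37 (SE 0.073, limma adjusted p = 0.0059), a call lost without replicate 2 with CHIR99021. Uqcrq, Cox4i1, Cox5a, Sdhb and 7 further complex I genes (Ndufa5, Ndufa8, Ndufa9, Ndufb2, Ndufb8, Ndufb9 and Ndufs8), like Ndufb10, were called in 129 and not in B6, and whether the strains differed in any of them is addressed by the interaction below.

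The 3 genes that were lower with the inhibitor, all in B6 and all accessory subunits of complex I, were Ndufa7, Ndufa2 and Ndufa6. Ndufa7 measured 12.22 and 12.31 with vehicle and 11.76 and 11.89 with CHIR99021 in B6 and was lower by 0.44 on the log2 scale (-0.44, SE 0.078, limma adjusted p = 0.00298). In 129 the values were 11.89 and 11.83 against 11.83 and 11.78, and the difference was -0.05. All 4 further probe sets of Ndufa7 were called lower in B6, by -0.28 to -0.35. Ndufa2 measured 11.97 and 12.02 with vehicle and 11.71 and 11.82 with CHIR99021 in B6 (-0.23, limma adjusted p = 0.0435). Ndufa6 measured 11.11 and 11.06 against 10.87 and 10.86 (-0.22, adjusted p = 0.0427). Both lay close to the threshold, and neither was called when any 1 of the 10 arrays other than normal B6 retina was left out.

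The test of the strain difference in the inhibitor effect called none of the 44 genes, at 0.389% of all probe sets called higher and 0.966% lower in 129 minus B6. It had 4 genes higher and none lower at an unadjusted p under 0.05. Of the 44 interaction values, 38 lay above 0, with a median of 0.12. With a trend and robust eBayes step 3 genes of complex I were called, Ndufa7 (0.39), Ndufa5 (0.34) and Ndufb10 (0.30). A stronger effect in 129 was thus not called for any single gene in the fit used throughout. The strain difference in the culture effect likewise called none, with 1.55% of all probe sets called higher and 1.03% lower. At an unadjusted p under 0.05, 2 genes were higher and none lower, and Uqcrb (0.32) was called with the trend and robust step. The second probe set of Uqcrb did not show the fall in B6. It measured 11.35 and 11.26 in normal and 11.37 and 11.48 in cultured B6 retina. In 129 it measured 11.04 and 10.97 in normal and 11.13 and 10.95 in cultured retina.

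**Figure D4:**
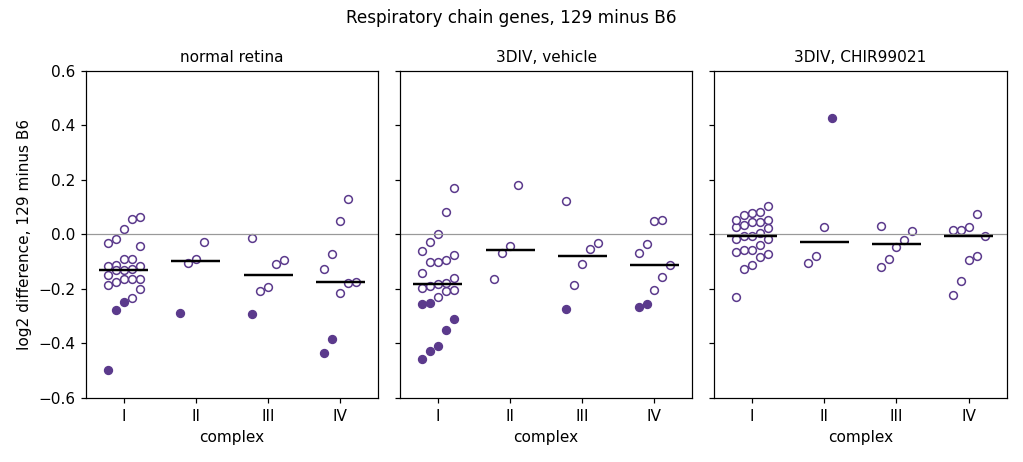
Log2 difference between strains (129 minus B6, vertical axis) of the 44 genes by complex, in normal retina, at 3DIV and at 3DIV with CHIR99021. Filled points were called at a limma adjusted p under 0.05 and black lines are medians. In normal retina 39 of 44 points and at 3DIV 37 of 44 lie below 0, and with CHIR99021 24 of 44 do.

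The strains themselves were compared in each state, by the signal of the probe set that stands for each gene. For some genes, among them Ndufa3, Cox6c, Ndufc2 and Sdha, other probe sets gave a different strain difference, as given below. Whether each strain difference in signal is one in RNA was not tested. In normal retina, 7 of the 44 genes were lower in 129 than in B6 and none was higher, where 5.45% of all probe sets were called lower and 6.07% higher. In vehicle explants 10 were lower and none higher, at 8.57% and 11.4% of all probe sets. With CHIR99021 none was lower and 1 was higher, at 4.88% and 6.01%. At an unadjusted p under 0.05 the counts were 19 lower and none higher in normal retina, 19 lower and 2 higher in vehicle explants, and 3 lower and 1 higher with CHIR99021, in limma. With the trend and robust step the calls at an adjusted p under 0.05 were 20 and 1, 22 and 1, and 2 and 1. The median strain difference was -0.13, -0.15 and -0.0047. Without the normal 129 retina rich in lens markers or without the other one, 3 or 2 genes were lower in normal retina, and the median was -0.15 or -0.12. Without replicate 1 or replicate 2 of normal B6 retina, 2 or 4 genes were lower. In vehicle explants 3 to 5 genes were lower when 1 of the 4 arrays compared was left out, 3 without replicate 2 of either strain. Markers of microglia and macrophages were lower in 129 for 8 of 12 genes in normal retina (median -0.57), 12 of 12 in vehicle explants (median -1.16) and 10 of 12 with CHIR99021 (median -0.65). Those of the pigmented epithelium were lower for 2 of 8 genes in normal retina (median -0.73), and those of rods for none of 13 in normal retina and 2 of 13 in vehicle explants. The pigmented epithelium markers differed between the normal 129 retinas and overlapped between strains. They summed to an intensity of 4398 and 10749 in normal 129 retina and to 9645 and 11795 in B6. The part of these cell types in the strain differences was not tested. The vehicle explants of 129 enter both the strain comparison at 3DIV and the inhibitor comparison in 129.

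By the probe sets that stand for the genes, Ndufa3 had the largest strain difference in normal retina and in vehicle explants. Its values of 11.28 and 11.48 in normal 129 retina lay below 11.91 and 11.84 in B6, by -0.50 (SE 0.083, limma adjusted p = 0.00282), and 12.00 and 11.98 at 3DIV lay below 12.39 and 12.50, by -0.46 (adjusted p = 0.00309; -0.15 and not called with the mean of its probe sets). With CHIR99021 the values were 12.10 and 12.11 in 129 and 12.29 and 12.38 in B6, a difference of -0.23 that was not called. At 3DIV its probe set of lowest signal had the opposite sign, 0.52, called. Cox6c, a complex IV subunit, measured 12.11 and 12.21 in normal 129 retina and 12.55 and 12.53 in B6 (-0.38, SE 0.069, limma adjusted p = 0.00424), and 12.28 and 12.25 against 12.52 and 12.51 at 3DIV (-0.26, adjusted p = 0.0235). The call of Cox6c in normal retina was lost with the compared arrays alone. Its second probe set, of similar brightness, overlapped between strains in normal retina (12.19 and 12.11 in 129, 12.16 and 12.31 in B6). At 3DIV that probe set measured 12.11 and 12.06 in 129 and 12.47 and 12.38 in B6. Cox7c in normal retina was lower in 129 by -0.44 (SE 0.087, limma adjusted p = 0.00775), with the values given above, and was not called without replicate 1 of either strain, with the compared arrays alone or with its other probe set (-0.32). Uqcrq measured 10.93 and 10.97 against 11.30 and 11.19 (-0.29, adjusted p = 0.0361), which was lost in 11 of 19 alternatives, among them without either normal 129 array, with the mean of its probe sets (-0.15) and with the probe set left when _s_at and _x_at ones are dropped (-0.05).

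In vehicle explants the other large differences, by the probe sets that stand for the genes, were those of Ndufb10 (-0.43, SE 0.074, limma adjusted p = 0.00233), Ndufa7 (-0.41, adjusted p = 0.00401) and Ndufs4 (-0.35, adjusted p = 0.018). Ndufs4 measured 9.98 and 9.84 in 129 and 10.21 and 10.31 in B6. Its difference was -0.10 and not called with the mean of its probe sets, and the call was lost without replicate 2 of either strain. Ndufc2 had probe sets that disagreed at 3DIV. The one that stands for the gene measured 12.42 and 12.41 in 129 and 12.47 and 12.52 in B6. Another bright one measured 11.33 and 11.27 in 129 and 11.86 and 11.81 in B6, and a further one 11.60 and 11.54 against 12.00 and 11.86. The gene called higher in 129 with CHIR99021 was Sdhc, at 10.11 and 10.09 against 9.65 and 9.70 (0.43, SE 0.082, limma adjusted p = 0.0063). Its second probe set stood at 0.17 and was not called. A low-signal probe set of Sdha was lower in 129 in all 3 states (-0.93, -0.95 and -0.83), while the one that stands for the gene was called in normal retina alone (-0.29).

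Subunits outside the list were read in the same way. The shares of all probe sets called higher and lower after culture were 14.9% and 16.6% in B6 and 14.7% and 15.9% in 129. With CHIR99021 they were 9.42% and 9.18% in B6 and 5.87% and 6.38% in 129. Of 9 further complex I subunits, 3 were higher and 1 lower after culture in B6 and none higher and 1 lower in 129. With CHIR99021, 3 were higher and none lower in 129, with a median of 0.24, and 1 was higher in B6. Ndufs5 was lower in 129 in normal retina (-0.72), at 3DIV (-0.93) and with CHIR99021 (-0.56). Ndufb4 fell by 1.23 in B6 and by 1.31 in 129 after culture, on a probe set of log2 values of 4.79 to 6.57. Of 6 further subunits of complexes III and IV with cytochrome c, 1 was higher and 2 lower after culture in B6 (median -0.07) and 1 and 3 in 129 (median -0.13). With CHIR99021 none was called in B6 and 3 were higher in 129, among them cytochrome c itself (Cycs, 0.42). Uqcr11 rose after culture, by 0.37 and 0.41, and Cox7a2l fell by 0.33 and 0.43.

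Tissue-restricted paralogs of complex IV subunits behaved one by one. Cox6a2, the heart and muscle form of Cox6a1, measured 6.50 and 6.51 with vehicle and 7.47 and 7.07 with CHIR99021 in B6, and 6.31 and 6.38 against 7.20 and 6.96 in 129; it was higher by 0.77 and 0.74 (SE 0.12, limma adjusted p = 0.0019 and 0.00356). Cox8b measured 6.97 and 6.63 in normal B6 retina and 5.12 to 5.61 in every other array; it fell by 1.51 after culture in B6 and was not called in 129. Cox7a1 was lower in 129 in normal retina (-0.72) and at 3DIV (-1.07), and Cox6b2 was higher in 129 at 3DIV (0.39) and with CHIR99021 (0.66). Cox4i2 and Ndufa4l2, known as hypoxia-induced forms, were called in none of the 9 comparisons, with differences of -0.19 to 0.13. The 6 paralogs together were dim, with a mean summed intensity of 572 in normal B6 and 442 in normal 129 retina. The 9 complex IV genes summed to 51829 and 48530 there. Flat values at low signal are not read as a lack of response.

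Other mitochondrial lists gave the setting of these values. Over all probe sets, 14.9% were called higher and 16.6% lower after culture in B6, and 14.7% and 15.9% in 129. With the inhibitor the shares were 9.42% and 9.18% in B6 and 5.87% and 6.38% in 129. Counts of the lists that lie near these shares say little about the lists. Of 65 genes of the mitochondrial ribosome, 30 were called higher and 2 lower after culture in B6, and 26 and 2 in 129, with medians of 0.22 and 0.19, and with CHIR99021 9 were higher and 3 lower in B6 (median 0.04) and 20 higher and none lower in 129 (median 0.19). Of the 16 ATP synthase genes 4 rose and 1 fell after culture in each strain, and 4 were higher with the inhibitor in B6 and 5 in 129. Atp5mc1, a subunit of the membrane ring, rose after culture (0.34 and 0.49) and was higher with the inhibitor (0.39 and 0.52). Of 17 citric acid cycle genes, the counts were 4 higher and 3 lower in B6 and 6 and 1 in 129, with Suclg2, a succinyl-CoA ligase subunit, rising by 0.98 and 1.41. With the inhibitor 6 were higher and 1 lower in B6, and 7 higher and 1 lower in 129. Of 39 assembly factors, 7 were higher and 5 lower in B6 and 11 and 3 in 129 after culture, and 5 were higher and 6 lower in B6 and 4 higher and 2 lower in 129 with the inhibitor. Ndufaf6, a complex I assembly factor, rose by 1.11 and 1.09 after culture. Of 21 genes of protein import and carriers, 3 were higher and 4 lower in B6 and 7 and 3 in 129, and 7 and 8 were higher and 1 and none lower with the inhibitor.

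**Figure D5:**
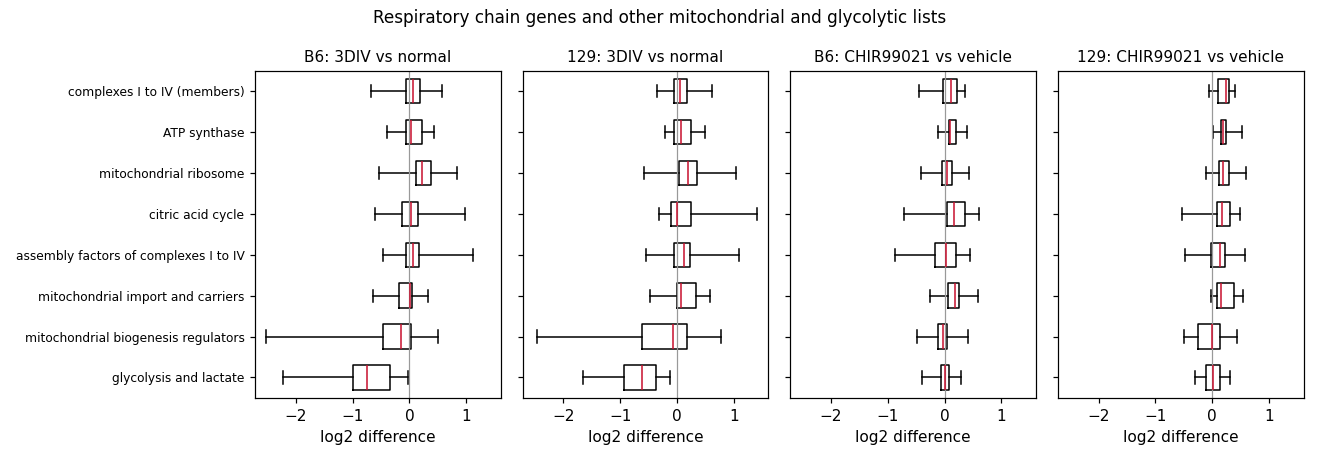
Log2 differences (horizontal axis) of the 44 respiratory chain genes and of 7 other lists in the culture and inhibitor comparisons of each strain. Boxes span the quartiles, red lines are medians and whiskers reach the lowest and highest gene. Glycolytic genes lie at a median of -0.76 and -0.61 after culture, where the respiratory chain genes lie at 0.06 and 0.05.

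Several known regulators of these genes fell in the explants. After culture, 16.6% of all probe sets were called lower and 14.9% higher in B6, and 15.9% and 14.7% in 129. Of 16 regulators of mitochondrial biogenesis, 6 were lower and 1 higher after culture in B6 and 5 and 2 in 129, with 9 not called in each strain, and the rise shared by both was that of Pprc1 (0.50 and 0.78). Ppargc1a, which encodes PGC-1α, measured 9.68 and 9.71 in normal and 8.95 and 8.94 in cultured B6 retina, and 9.67 and 9.66 in normal and 8.91 and 8.83 in cultured 129 retina; it fell by 0.75 and 0.80 (SE 0.068, limma adjusted p = 1.09e-05 and 6.17e-06). Ppargc1b fell by 0.48 and 0.87, and Nrf1 by 0.40 and 0.55. Esrrb, an estrogen-related receptor that rods express, fell by 2.52 and 2.46. Gabpa and Tfam, the mitochondrial transcription factor, were not called after culture, with differences of -0.16 to 0.20. Esrra, which encodes ERRα, was higher with CHIR99021 in 129, at 8.84 and 8.75 against 8.45 and 8.25 (0.45, SE 0.084, limma adjusted p = 0.00686), and stood at 0.03 in B6.

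Promoter sequences of 34 of the 44 genes were at hand from RefSeq (GRCm38.p6), as windows of 250 bases before to 50 after the start of the gene. They were searched on both strands for 4 short motifs: GCGCANGCG (the core bound by NRF1), CCGGAAG (bound by ETS factors such as GABP), AAGATGGCG (bound by YY1) and TNAAGGTCA (the element bound by ERRα). At least 1 motif was found for 17 of the 34 genes (50%), against 17.8% of all 27025 genes with a window and 16% of all 32851 windows. The NRF1 core was found for 8 genes (23.5%, against 7.03% of all genes), the ETS core for 7 (20.6%, against 9.93%), the YY1 core for 4 (11.8%, against 1.64%) and the ERRα element for 1 (2.94%, against 1.43%). A match says only that these letters are there.

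Promoters of 4 genes are shown, for the largest called fall after culture (Cox7c), the largest called rise (Ndufa3), the member with most kinds of motif (Sdhd) and the largest difference with CHIR99021 in 129 (Ndufb10), the last 2 chosen after the motif counts were seen. Capitals mark a motif. Sdhd holds an NRF1 core at base -79, an ETS core at -46 and an ERRα element at 37, counted from the start of the gene, and Ndufb10 holds an NRF1 core at -2. None of the 4 motifs was found in the windows of Cox7c and Ndufa3.
Cox7c, chr13:86046746-86047045, minus strand: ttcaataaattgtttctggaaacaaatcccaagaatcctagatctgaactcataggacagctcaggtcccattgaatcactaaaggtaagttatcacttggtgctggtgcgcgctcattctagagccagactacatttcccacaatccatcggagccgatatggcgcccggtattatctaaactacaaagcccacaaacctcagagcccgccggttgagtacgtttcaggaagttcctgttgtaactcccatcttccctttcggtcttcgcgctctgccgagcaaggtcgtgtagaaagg
Ndufa3, chr7:3617123-3617422, plus strand: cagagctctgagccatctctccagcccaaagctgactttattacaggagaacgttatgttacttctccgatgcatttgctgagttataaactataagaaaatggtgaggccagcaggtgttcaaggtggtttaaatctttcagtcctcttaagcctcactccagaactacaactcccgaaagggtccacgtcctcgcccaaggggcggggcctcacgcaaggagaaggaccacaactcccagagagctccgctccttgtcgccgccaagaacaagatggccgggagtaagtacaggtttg
Sdhd, chr9:50603800-50604099, minus strand: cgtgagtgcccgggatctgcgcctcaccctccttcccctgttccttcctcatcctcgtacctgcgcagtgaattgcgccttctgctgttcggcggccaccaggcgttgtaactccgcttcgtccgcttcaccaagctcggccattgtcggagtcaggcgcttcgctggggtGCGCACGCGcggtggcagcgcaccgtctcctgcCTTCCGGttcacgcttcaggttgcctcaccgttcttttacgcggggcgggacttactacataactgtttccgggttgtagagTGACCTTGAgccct
Ndufb10, chr17:24724374-24724673, minus strand: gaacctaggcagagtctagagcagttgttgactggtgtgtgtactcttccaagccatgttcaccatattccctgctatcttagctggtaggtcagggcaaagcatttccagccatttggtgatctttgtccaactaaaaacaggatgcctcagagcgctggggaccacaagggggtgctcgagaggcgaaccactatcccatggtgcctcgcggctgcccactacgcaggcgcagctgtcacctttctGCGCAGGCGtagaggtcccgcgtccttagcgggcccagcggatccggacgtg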

How the data were processed

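Total RNA of neural retina was labelled with biotin and hybridised to Affymetrix Mouse Genome 430 2.0 arrays, 2 arrays for each of 6 groups. The labels give 15 µM for CHIR99021, and the methods of the study name a higher dose as well. The deposited values are RMA intensities on a linear scale, computed by the authors with a version of RMA that the sources used here do not name. The deposited intensities were taken to log2 here, and 64 control probe sets of the 45101 were left out. RMA brings all arrays to 1 distribution, so a shift shared by all genes cannot be seen.

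Group means were estimated from the 12 arrays together in limma (3.58.1, under R 4.3.3). Variances were moderated by eBayes with neither the trend nor the robust option, for 9 comparisons with 6 residual and 4.69 prior degrees of freedom. P-values were adjusted with Benjamini-Hochberg over 45037 probe sets within a comparison, and an adjusted p under 0.05 was called. SE is the standard error of that fit. Interactions are given as the 129 change less the B6 change. The steps were tested on simulated data.

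The members, the other lists and the marker lists (rods, cones, bipolar, amacrine and ganglion cells, Müller glia, microglia and macrophages, pigmented epithelium, vessels, lens and erythrocytes) were chosen with earlier results of these data known. Values of single arrays were given, in each complex, for the 2 genes called with the largest rise and the 2 with the largest fall after culture (by the mean of the changes in both strains), for the 3 largest called in each direction with the inhibitor and for the 4 largest called between strains, and from other lists for chosen genes. Alternatives were the replicate number as a block, the compared arrays alone, probe sets above the median level, cyclic loess, eBayes with trend and robust, other choices of probe set for a gene, Ndufa4 in complex I, and each array left out in turn. Figures were drawn with matplotlib in Python. Genes encoded in mitochondrial DNA were not analysed here.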

Additional observations from a re-analysis of the deposited data

Results flagged for a closer look

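No gene of complexes I to IV was called for a strain difference in the response to culture or to the inhibitor at an adjusted p under 0.05 in limma; at an unadjusted p under 0.05 the counts were 2 and 4, and with trend and robust eBayes 1 and 3 were called. Among the other lists, of 6 to 65 measured genes each, 4 genes were called for a different response to culture (129 minus B6), by the test of the interaction. That test called 1.55% of all probe sets higher and 1.03% lower. The share over the genes of these lists was not computed, so the count of 4 says little about the lists. Cox8b, a muscle form of a complex IV subunit, fell by 1.51 in B6 and stood at -0.33 in 129, an interaction of 1.18 (limma adjusted p = 0.00627). Hspd1, the mitochondrial chaperonin, stood at -0.06 in B6 and rose by 0.58 in 129, an interaction of 0.64 (limma adjusted p = 0.0141). Timm44, which guides imported proteins into the matrix, fell by 0.64 in B6 and stood at -0.0025 in 129, an interaction of 0.63 (limma adjusted p = 0.0126). Mrpl50, a protein of the mitochondrial ribosome, stood at 0.0068 in B6 and rose by 0.52 in 129, an interaction of 0.51 (limma adjusted p = 0.0375).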

How the results depend on the processing

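Counts are of the 44 genes (43 without _s_at and _x_at probe sets) called at a limma adjusted p under 0.05. With the compared arrays alone, higher and lower after culture were 6 and 1 in B6 (10 and 5 over all arrays) and 4 were higher in 129 (8), with the inhibitor 1 was higher and 1 lower in B6 (9 and 3) and 8 were higher in 129 (21), and 1 was lower in 129 in normal retina (7) and 5 at 3DIV (10). With probe sets above the median level, 14 rose after culture in 129, 12 and 18 were lower in 129 in normal retina and at 3DIV, and 1 was higher in the culture interaction. After cyclic loess 3 rose and 4 fell after culture in 129 and 16 were lower in 129 at 3DIV. With trend and robust eBayes, 15 rose and 4 fell after culture in 129, 15 were higher with the inhibitor in B6, 20 were lower and 1 higher in 129 in normal retina, 22 and 1 at 3DIV and 2 lower with CHIR99021, and 1 and 3 were higher in the culture and inhibitor interactions. The mean of all probe sets of a gene gave 2 lower in 129 with CHIR99021, and leaving out _s_at and _x_at probe sets gave 1 lower after culture in 129. Leaving out 1 array at a time gave, after culture, 6 to 10 higher and 1 to 5 lower in B6 and 2 to 7 higher and 0 to 2 lower in 129, with the inhibitor 0 to 9 higher and 1 to 3 lower in B6 and 0 to 20 higher in 129, and between strains 2 to 6 lower in normal retina and 3 to 10 at 3DIV. With the replicate block, 5 rose after culture in 129, 1 was lower with the inhibitor in B6 and 4 were lower in 129 in normal retina. Same-numbered arrays did not deviate together (r of -0.11 to 0.04 over 15 pairs of groups), so the numbers were not read as a pairing. Of the values of named members, 639 kept their side of the threshold, 118 lost the call and 2 gained it. No called one changed sign; the uncalled changes of Sdha (-0.07 to 0.02) and Uqcrb (-0.04 to 0.10) after culture in 129 did. Why the counts moved was not tested. With 2 arrays a group, differences near 0.2 lay at the edge of what was called.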
